A study of Mus musculus with 6 samples.

Results

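The Wnt genes of mouse dorsal skin were examined after topical rebamipide treatment. The genes were taken from the deposited table by symbol: Wnt ligands, R-spondins, Frizzled receptors, the receptors Lgr4, Lgr5 and Lgr6, the secreted antagonists of the Dkk and Sfrp families with Wif1 and Notum, the feedback inhibitors Axin2, Nkd1 and Nkd2, and the nuclear factors Lef1 and Tcf7. Of 21959 genes in the table, 51 matched. They were 19 Wnt ligands, 4 R-spondins, 10 Frizzled receptors, 3 Lgr receptors, 10 secreted antagonists, 3 intracellular feedback inhibitors and 2 nuclear factors.

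Wnt ligands are secreted lipid-modified proteins that bind Frizzled receptors and Lrp co-receptors. In the canonical branch, binding stops the destruction of β-catenin, which then acts with TCF/LEF factors on target genes, among them Axin2, Lef1 and the Nkd inhibitors. R-spondins bind Lgr receptors and raise the number of Frizzled receptors on the surface. In the skin this pathway is known for starting the growth phase of the hair cycle, anagen, and Lgr5 and Lgr6 mark stem cells of the hair follicle.

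The dorsal skin, taken at full thickness for RNA-seq, came from male C57BL/6 mice that were 7 weeks old and had been shaved in telogen, the resting phase. The vehicle group received 30% dipropylene glycol and 70% water daily for 7 days, and the rebamipide group received 3% rebamipide, a mucosal protective drug, over the same time. Each group had 3 mice with 1 poly-A library each, numbered 1 to 3 below, and the labels do not say that these numbers pair the mice. Total counts were 38676018 to 39915276 in vehicle and 32709801 to 34706852 in rebamipide libraries.

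The libraries stood apart from each other in their cell type markers, and some went against the label of full-thickness skin in telogen. Rebamipide library 3 held 0 counts of Krt14 and 4 counts of Krt5, the keratins that define basal epidermis, whereas the other 5 libraries held 6102 to 64371 counts of Krt14. The basal list was not absent as a whole from that library, which held 3388 counts of Itga6 and 348 of Itgb4, integrin genes. Col17a1 and Trp63 of the same list held 11 and 31 counts there, against 7420 to 16579 and 9161 to 15213 in vehicle libraries. Vehicle library 1 held 230102 counts of Krt25, a keratin of the inner root sheath around the growing hair, against 91266 and 2251 in vehicle libraries 2 and 3 and 8149, 0 and 0 in rebamipide libraries 1, 2 and 3. All 10 growing hair follicle markers found were at 0 in rebamipide library 3, and 9 of 10 had at most 3 counts in rebamipide library 2. With CPM, library-scaled counts after edgeR's TMM normalization (called normalized CPM below), the mean log2(CPM + 0.5) of that list was 9.27, 7.75 and 2.97 in the vehicle libraries and 4.99, -0.90 and -1.0 in the rebamipide libraries. Adipocyte markers ran the other way, from 7.04 to 8.58 in vehicle and from 9.96 to 10.58 in rebamipide libraries, and Ucp1, which defines brown adipocytes, had 0 counts in every vehicle library and 81048 to 220449 in rebamipide libraries. Of the 6 brown adipocyte markers, 5 were higher without overlap, and Elovl3 was lower without overlap (129 to 238 normalized CPM in vehicle and 33.3 to 83.1 in rebamipide libraries). Fast skeletal muscle markers summed to 4824, 20780 and 23940 CPM in vehicle and 30520, 6504 and 244 in rebamipide libraries, and fibroblast markers to 12000, 13740 and 17730 against 15110, 3503 and 1850. The place on the back from which each sample was taken is not given in the sources used here, and its part in the results was not tested. Mitochondrial genes took 2.59% to 5.36% of vehicle and 13.28% to 21.96% of rebamipide counts. In these bulk samples, fewer cells of a type and less RNA per cell cannot be told apart, and the part of these markers in the results on Wnt genes was not tested.

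The question was which parts of the pathway differed between vehicle and rebamipide skin at day 7. Most Wnt genes were fitted lower in rebamipide skin, while the receptor genes Fzd4 and Lgr6 rose. Of the 51 genes, 43 passed edgeR's filter on low counts, and 39 of 43 had a log2 fold change below 0. The median over the 43 genes was -1.85, against -0.175 over all 14875 genes tested. When libraries were scaled by total counts alone, both medians shifted down, to -2.35 and -0.778.

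At an adjusted p-value under 0.05 in edgeR's quasi-likelihood test, Fzd4 and Lgr6 were higher (2 of 43 genes, 4.65%), and Fzd3 and Dkk3 were lower (2 of 43, 4.65%). Among all genes tested, 14.1% were called higher and 6.51% lower by that rule. The lower share was therefore close to that of the whole table, and the higher share was below it. The study's own thresholds (log2 fold change past 1 in size, p under 0.05 without adjustment) called the same 2 genes higher and 16 lower (37.2%), where 14.3% of all genes were higher and 14.5% lower. These thresholds were applied here to edgeR. Applied to DESeq2, the tool the study names, they called 2 Wnt genes higher and 29 lower, where 12.6% of all genes were higher and 16.6% lower, and with edgeR on total counts alone they called 1 higher and 27 lower, where 7.59% and 30.4% of all genes were. By DESeq2, 3 of 47 Wnt genes passed an adjusted p-value under 0.05 as higher (6.38%) and 19 as lower (40.4%), against 16.2% and 15.5% of 16433 genes. In normalized CPM, 23 of 43 Wnt genes were lower without overlap between the groups (53.5%) and 3 were higher (6.98%), against 24.0% and 24.5% of all genes tested.

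The number of genes called lower rested on single libraries. At the study's thresholds it was 5 without vehicle library 1, 8 without vehicle library 2, 5 without rebamipide library 2 and 27 without rebamipide library 1, against 16 with all libraries. The whole table gave 1591, 1512, 1424 and 3043 lower in these fits and 2161 with all libraries. Dkk2, Dkk3, Fzd3 and Rspo3 were called in each of the 6 fits that left out 1 library. How many genes of the whole table were called in each of these fits was not counted, so this number cannot be set against a share.

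**Figure D1:**
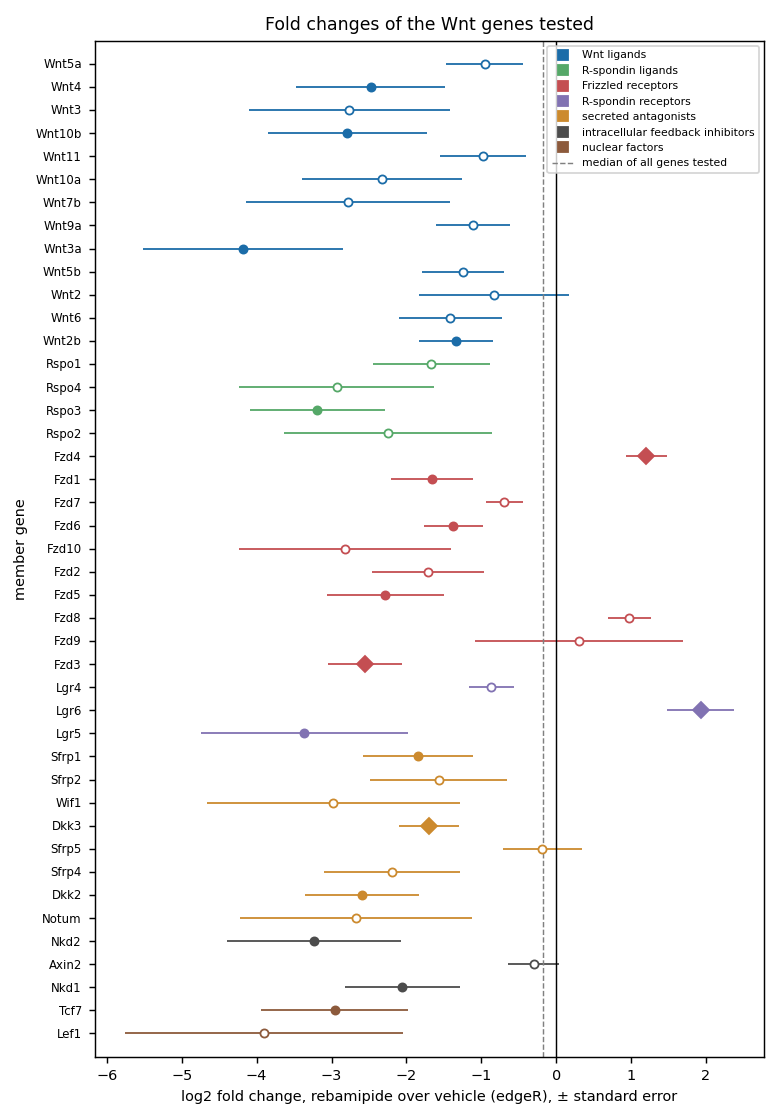
Log2 fold change of rebamipide over vehicle (x axis, edgeR, 3 libraries per group) with its standard error for each of the 43 Wnt genes tested (y axis), colored by role. Diamonds mark an adjusted p-value under 0.05, filled circles the study's thresholds only, and open circles neither. The dashed line marks the median of all genes tested, -0.175, and 39 of the 43 points lie to the left of 0.

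The Wnt ligands that could be tested were fitted lower. Of 19 ligands 13 were tested, and all 13 had a log2 fold change below 0, with a median of -1.41 and a range from -4.18 to -0.83. None passed an adjusted p-value under 0.05 in edgeR, 4 were lower with an unadjusted p-value under 0.05 (18.8% of all genes tested were lower and 20.9% higher by that rule), and DESeq2 called 4 lower (15.5% of all genes). The summed FPKM of the family, a scale that divides by gene length, was 105.5, 63.6 and 44.4 in vehicle libraries 1, 2 and 3 and 23.1, 10.6 and 7.30 in rebamipide libraries 1, 2 and 3, so that the groups did not overlap. Divided by the TMM factors, the sums were 82.5, 51.5 and 36.7 against 24.9, 14.3 and 9.67, again without overlap.

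Wnt3a, a canonical ligand, had 732, 244 and 94 counts in the vehicle libraries and 26, 8 and 0 in the rebamipide libraries. Every vehicle library was above every rebamipide library, but the vehicle libraries spread 7.29-fold in normalized CPM. Its log2 fold change was -4.18 ± 1.34 (SE), the largest fall fitted among the 43 Wnt genes tested by edgeR, with an adjusted p-value of 0.0708 in edgeR and 0.00201 in DESeq2. Wnt10b, a canonical ligand expressed early in hair follicle growth, had 2239, 675 and 382 counts in vehicle and 229, 30 and 24 in rebamipide libraries. Here too the groups did not overlap, although rebamipide library 1 came close to vehicle library 3 in normalized CPM (7.54 and 8.17). Its log2 fold change was -2.79 ± 1.06 (SE), with an adjusted p-value of 0.106 in edgeR and 0.0145 in DESeq2.

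Wnt4 had 2734, 2029 and 1003 counts in vehicle and 450, 142 and 18 in rebamipide libraries. The groups were separate, and the rebamipide libraries spread 21.6-fold in normalized CPM. The log2 fold change of Wnt4 was -2.48 ± 1.00 (SE, adjusted p = 0.119 in edgeR, 0.0242 in DESeq2). Wnt2b was low, with 70, 105 and 168 counts in vehicle and 22, 22 and 32 in rebamipide libraries. It was highest in vehicle library 3, the vehicle library with the lowest growing hair follicle list, and its log2 fold change was -1.34 ± 0.49 (SE, adjusted p = 0.0972 in edgeR, 0.0497 in DESeq2).

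Wnt5a, a ligand best known for non-canonical signaling, had the highest mean FPKM of the family over all libraries. Its counts were 7509, 3338 and 1570 in vehicle and 1390, 1097 and 1082 in rebamipide libraries. In normalized CPM the rebamipide libraries lay together at 45.8, 42.8 and 41.3, inside the vehicle range of 33.6 to 150, so the groups overlapped. The fitted log2 fold change was -0.96 ± 0.52 (SE, adjusted p = 0.215 in edgeR), and -0.24 without vehicle library 1. Within the family, Wnt5a made up 23.3%, 16.8% and 11.7% of the summed FPKM in the vehicle libraries and 23.5%, 38.3% and 54.6% in the rebamipide libraries. For Wnt11, another non-canonical ligand, the shares were 9.73%, 6.89% and 4.39% against 10.03%, 12.3% and 25.4%. These shares are parts of a sum that was itself lower in the rebamipide libraries, and Wnt11 had 312 to 1661 counts in vehicle and 186 to 314 in rebamipide libraries.

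The other 7 ligands tested, Wnt2, Wnt3, Wnt5b, Wnt6, Wnt7b, Wnt9a and Wnt10a, had log2 fold changes from -2.79 (Wnt7b) to -0.83 (Wnt2), with edgeR adjusted p-values from 0.143 to 0.555. Wnt3 and Wnt7b, ligands of the epidermis and hair follicle, had 0 counts in rebamipide library 3, where Krt14 was also at 0, and 90 to 180 counts in the other rebamipide libraries. Wnt8a, which did not pass the filter, had 171 counts in vehicle library 1 and at most 8 in any other library. Wnt1, Wnt7a, Wnt9b and Wnt16 had at most 24 counts in any library, and Wnt8b had 0 in all of them, which still allows up to 3 counts in each library by counting error.

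A promoter of Wnt11 is shown because it is one of few Wnt gene promoters that hold the core letters recognized by TCF/LEF factors. The table lists a second Wnt11 promoter, which holds no match. The letters searched were CTTTGAA and CTTTGAT on both strands, in the 250 bases before each start site of the RefSeq promoter table (GRCm38.p6), and the match is in capitals. Of the 51 genes, 35 were in that table with 42 promoters, and 3 of the 42 held a match (7.14%, in Wnt11, Wnt5b and Dkk1), against 7.48% of 32851 promoters in the table. The one shown lies at chr7:98834862-98835111 on the plus strand, with the match starting 51 bases before the start site (position -51).
Wnt11 promoter: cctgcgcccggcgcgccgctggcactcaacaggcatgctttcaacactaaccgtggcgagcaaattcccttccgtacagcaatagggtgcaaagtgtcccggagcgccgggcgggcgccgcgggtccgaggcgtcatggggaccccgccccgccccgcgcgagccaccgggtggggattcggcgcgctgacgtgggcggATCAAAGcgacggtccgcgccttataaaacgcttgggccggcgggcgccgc

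The R-spondins, ligands that amplify Wnt signals, were low and were fitted lower. None of the 4 passed an adjusted p-value under 0.05 in edgeR, 1 was lower with an unadjusted p-value under 0.05 (against the 18.8% of all genes), and DESeq2 called 2 lower (15.5% of all genes). Rspo3 had 288, 116 and 60 counts in vehicle and 19, 8 and 2 in rebamipide libraries. All vehicle values were above all rebamipide values, and the log2 fold change was -3.19 ± 0.90 (SE, adjusted p = 0.0533 in edgeR, 0.00156 in DESeq2). Rspo4, known for its role in nail formation, had 297, 186 and 83 counts in vehicle and 39, 5 and 0 in rebamipide libraries. These groups were also separate (log2 fold change -2.93 ± 1.30, SE, adjusted p = 0.147 in edgeR, 0.0438 in DESeq2). In edgeR the log2 fold change of Rspo4 was -5.256 without rebamipide library 1 and -2.349 without rebamipide library 3. Without rebamipide library 2 or any 1 of the vehicle libraries, DESeq2 did not call Rspo4. Rspo1 had 313, 171 and 309 counts in vehicle and 113, 22 and 14 in rebamipide libraries. Its groups overlapped in normalized CPM, since rebamipide library 1 (3.72) was above vehicle library 2 (3.47), and its log2 fold change was -1.67 ± 0.78 (SE, adjusted p = 0.162 in edgeR). Rspo2, a follicle-stimulating R-spondin, had 298, 82 and 39 counts in vehicle and 44, 8 and 0 in rebamipide libraries, with overlap between vehicle library 3 and rebamipide library 1.

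Of the 10 Frizzled receptor genes, all tested, 1 rose and 1 fell at an adjusted p-value under 0.05 in edgeR, close to the 14.1% and 6.51% of all genes, and 7 had a fitted change below 0. At the study's thresholds 1 was higher and 4 were lower (14.3% and 14.5% of all genes), and DESeq2 called 2 higher and 4 lower (16.2% and 15.5%). Fzd4, known as the receptor for Norrin in blood vessels and also a Wnt receptor, rose. The gene (ENSMUSG00000049791, chromosome 7 from 89053563 to 89062342 in the deposited table, whose build is GRCm39 according to the submitters' notes) had normalized CPM of 91.7, 134 and 150 in vehicle libraries 1, 2 and 3 and 227, 307 and 331 in rebamipide libraries 1, 2 and 3. Each rebamipide library was above each vehicle library. The means were 125 ± 30.2 and 288 ± 54.2 (SD, n = 3), and the log2 fold change was 1.20 ± 0.27 (SE, adjusted p = 0.031 in edgeR, 0.00409 in DESeq2). Its counts were 4578, 6621 and 7014 in vehicle and 6899, 7875 and 8665 in rebamipide libraries. These raw counts, not scaled for depth, overlapped through vehicle library 3 and rebamipide library 1. By FPKM, which is scaled by total counts, the groups did not overlap (17.43 to 26.99 in vehicle and 31.39 to 37.15 in rebamipide libraries). With total counts alone the log2 fold change was 0.57 (adjusted p = 0.0894 in edgeR), so part of the difference comes with the normalization. The adjusted p-value in edgeR was also 0.0527 without vehicle library 1, 0.122 without vehicle library 2, 0.122 without rebamipide library 2 and 0.0885 without rebamipide library 3, with log2 fold changes of 0.99 to 1.35 over the 6 fits that left out 1 library. The fits without vehicle library 2 and without rebamipide library 2 called 0 and 1 genes in the whole table, so their adjusted p-values say little about Fzd4 itself.

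Fzd4 was the only Wnt gene whose 6 libraries ranked as those of the adipocyte and the endothelial marker lists did, with rebamipide libraries 3, 2 and 1 highest, followed by vehicle libraries 3, 2 and 1. This order was shared by 6.6% of all genes tested. The mean log2(CPM + 0.5) of the endothelial list was 4.68, 5.28 and 6.03 in vehicle and 6.93, 7.29 and 7.46 in rebamipide libraries, and all 7 endothelial and 5 of 6 adipocyte markers were higher without overlap. The part of these cell types in the Fzd4 level was not tested. The promoter of Fzd4, shown as that of a gene that rose, lies at chr7:89404116-89404365 on the plus strand (GRCm38.p6, RefSeq) and holds no match to the letters searched.
Fzd4 promoter: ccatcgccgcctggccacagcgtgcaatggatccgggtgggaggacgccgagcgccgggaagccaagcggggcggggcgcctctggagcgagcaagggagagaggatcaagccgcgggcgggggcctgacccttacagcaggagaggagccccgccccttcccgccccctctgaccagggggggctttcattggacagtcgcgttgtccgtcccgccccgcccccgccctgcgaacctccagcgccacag

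Fzd3, a receptor best known for planar polarity and axon guidance, fell. The gene (ENSMUSG00000007989, chromosome 14 from 65429898 to 65499912 in the deposited table) had normalized CPM of 22.5, 12.8 and 7.04 in vehicle and 2.96, 2.34 and 1.91 in rebamipide libraries. The groups did not overlap, and the rebamipide libraries lay close together. The counts were 1125, 630 and 329 in vehicle and 90, 60 and 50 in rebamipide libraries. The estimated log2 fold change was -2.55 ± 0.49 (SE, adjusted p = 0.0209 in edgeR, 1.89e-05 in DESeq2). In edgeR the adjusted p-value was 0.0887 without vehicle library 2, 0.0967 without rebamipide library 2 and 0.0568 without rebamipide library 3, with log2 fold changes of -2.62, -2.53 and -2.40. The first and second of these fits called 0 and 1 genes in the whole table, and DESeq2 called Fzd3 lower with each of the 6 libraries left out.

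Fzd6, the Frizzled receptor that sets the direction in which hairs point, had 6015, 3659 and 1963 counts in vehicle and 910, 893 and 696 in rebamipide libraries. The groups were separate (log2 fold change -1.37 ± 0.39, SE, adjusted p = 0.0541 in edgeR, 0.0129 in DESeq2). Fzd1 had 8491, 4886 and 2334 counts in vehicle and 1596, 690 and 562 in rebamipide libraries. Fzd5 had 4238, 2159 and 474 counts in vehicle and 452, 183 and 172 in rebamipide libraries. Both genes overlapped in normalized CPM, since rebamipide library 1 was above vehicle library 3 (52.6 and 49.9 for Fzd1, 14.9 and 10.1 for Fzd5). The log2 fold change of Fzd1 was -1.66 ± 0.54 (SE, adjusted p = 0.0745 in edgeR, 0.0179 in DESeq2), and that of Fzd5 was -2.28 ± 0.78 (SE, adjusted p = 0.0818 in edgeR, 0.0121 in DESeq2).

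Of the remaining Frizzled genes, Fzd2, Fzd7 and Fzd10 had log2 fold changes from -2.82 to -0.69 with edgeR adjusted p-values from 0.0883 to 0.185. Fzd8 had normalized CPM of 7.05, 6.48 and 9.19 in vehicle and 13.8, 12 and 18.8 in rebamipide libraries. All 3 rebamipide libraries were above the vehicle libraries (log2 fold change 0.97 ± 0.29, SE, adjusted p = 0.0594 in edgeR, 0.0249 in DESeq2). Its counts, 319 to 430 in vehicle and 308 to 492 in rebamipide libraries, overlapped. Fzd9 had 14, 166 and 122 counts in vehicle and 191, 34 and 2 in rebamipide libraries, with no separation of the groups.

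The make-up of the family by FPKM shifted with these changes. Fzd4 made up 8.80%, 18.9% and 29.9% of the summed Frizzled FPKM in vehicle libraries and 40.3%, 60.4% and 65.6% in rebamipide libraries. In vehicle library 1, Fzd1 had the largest share at 26.1%, followed by Fzd10 at 18.3%, while in rebamipide library 3 their shares were 6.81% and 0.03%. The summed FPKM itself, which is scaled by total counts only, was 198, 130 and 90.2 in vehicle and 77.9, 56.4 and 56.6 in rebamipide libraries. Divided by the TMM factors of the libraries, the sums were 155, 105.5 and 74.5 against 83.9, 75.6 and 75.0, so the groups overlapped and vehicle library 3 was the lowest.

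**Figure D2:**
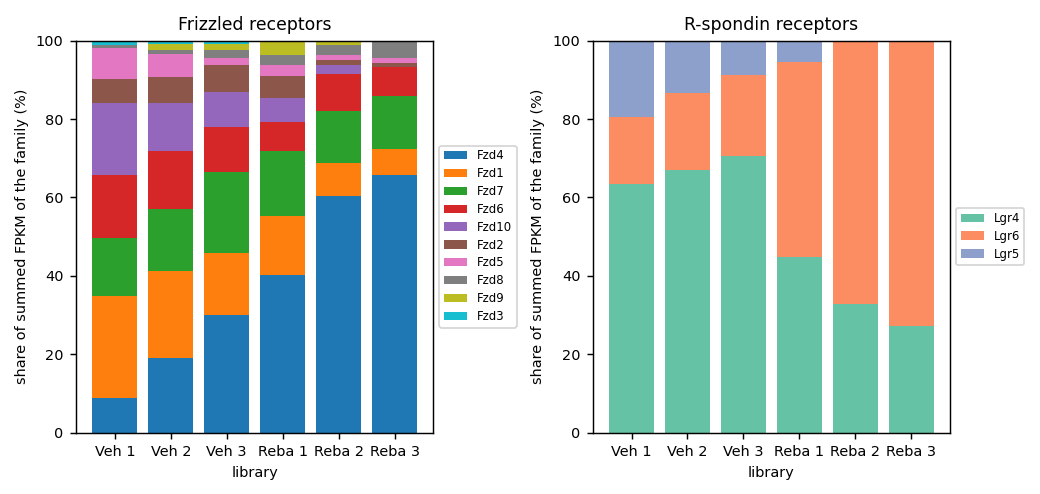
Share of the summed FPKM (y axis, percent) that each Frizzled gene (left) and each Lgr receptor gene (right) took in the 3 vehicle (Veh) and 3 rebamipide (Reba) libraries (x axis). Fzd4 took 8.80% to 29.9% of its family in vehicle and 40.3% to 65.6% in rebamipide libraries, and Lgr6 took 17.3% to 20.7% and 49.8% to 72.6%.

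Of the 3 R-spondin receptors, 1 rose at an adjusted p-value under 0.05 in edgeR (14.1% of all genes), and differences between the receptors were not tested. Lgr6, which marks stem cells of the upper hair follicle and epidermis, rose. The gene (ENSMUSG00000042793, chromosome 1 from 134911039 to 135033014 in the deposited table) had normalized CPM of 29.4, 24.6 and 14.6 in vehicle and 44.1, 97.8 and 118.8 in rebamipide libraries. The groups were separate, and rebamipide libraries 2 and 3, which had the fewest epidermal and hair follicle transcripts, were the highest. The means were 22.8 ± 7.51 and 86.9 ± 38.5 (SD, n = 3), and the log2 fold change was 1.93 ± 0.45 (SE, adjusted p = 0.0319 in edgeR, 0.0013 in DESeq2). In raw counts, 1465, 1209 and 684 in vehicle and 1339, 2509 and 3112 in rebamipide libraries, the groups overlapped through rebamipide library 1. By FPKM, which is scaled by total counts, they did not overlap (2.581 to 5.47 in vehicle and 5.975 to 13.09 in rebamipide libraries). With total counts alone the log2 fold change was 1.25 (adjusted p = 0.0549 in edgeR), and with a replicate block the adjusted p-value was 0.0999. In edgeR it was 0.059 without vehicle library 1, 0.114 without vehicle library 2, 0.0607 without vehicle library 3, 0.116 without rebamipide library 2 and 0.0723 without rebamipide library 3, with log2 fold changes of 1.64 to 2.25 over the 6 fits that left out 1 library and 1.87 with the block. DESeq2 called Lgr6 higher in each of those 6 settings, as it did Fzd4. In edgeR, the fits without vehicle library 2 and without rebamipide library 2 called 0 and 1 genes in the whole table.

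In rebamipide library 3, where Lgr6 had 3112 counts, Krt14 of the basal list was at 0, and so were Krt15 and Lhx2 of the bulge, the stem cell niche of the follicle. The other markers of these lists differed there. Of the basal list, Krt5, Col17a1 and Trp63 had 4, 11 and 31 counts, and the integrins Itga6 and Itgb4 had 3388 and 348. Of the bulge list, Sox9 and Gli1 had 41 and 23 counts. The bulge factor Nfatc1 had 909 (34.7 normalized CPM, within the vehicle range of 26.6 to 64.5). The part of these cell types in the Lgr6 level was not tested. The suprabasal keratinocyte list had a mean log2(CPM + 0.5) of -0.50 in that library, against 7.65 to 8.98 in vehicle libraries. The promoter of Lgr6, shown as that of the other gene that rose, lies at chr1:135105277-135105526 on the minus strand (GRCm38.p6, RefSeq) and holds no match to the letters searched.
Lgr6 promoter: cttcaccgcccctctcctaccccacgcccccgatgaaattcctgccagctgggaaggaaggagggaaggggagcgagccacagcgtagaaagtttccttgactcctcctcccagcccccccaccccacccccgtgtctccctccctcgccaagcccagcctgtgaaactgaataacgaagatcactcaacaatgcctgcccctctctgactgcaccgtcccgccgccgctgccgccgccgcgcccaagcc

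Lgr5, the marker of cycling stem cells of the lower follicle, had 2466, 1236 and 428 counts in vehicle and 219, 18 and 4 in rebamipide libraries. The groups did not overlap, and within each group the libraries spread widely. Its log2 fold change was -3.37 ± 1.38 (SE, adjusted p = 0.125 in edgeR, 0.016 in DESeq2). In edgeR it ranged from -6.015 without rebamipide library 1 to -2.634 without vehicle library 1. DESeq2 did not call Lgr5 without vehicle library 1, vehicle library 2 or rebamipide library 2. Lgr4, the broadly expressed receptor, had 4612, 3566 and 2009 counts in vehicle and 1032, 1060 and 1005 in rebamipide libraries. Its rebamipide libraries differed by little, from 34.0 to 41.3 normalized CPM, and lay below the lowest vehicle library at 42.96 (log2 fold change -0.87 ± 0.30, SE, adjusted p = 0.0843 in edgeR, 0.064 in DESeq2). By FPKM, Lgr4 was the main receptor of the 3 in vehicle libraries, with 63.3% to 70.7% of the sum, and Lgr6 was the main one in rebamipide libraries, with 49.8% to 72.6%. The sum of the 3 was 31.7, 22.6 and 12.5 FPKM in vehicle and 11.99, 15.9 and 18.0 in rebamipide libraries, which overlapped.

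Secreted antagonists were fitted lower as well. Of 10 genes, 8 were tested, 1 of them fell at an adjusted p-value under 0.05 in edgeR, 3 were lower at the study's thresholds, and DESeq2 called 4 lower (6.51%, 14.5% and 15.5% of all genes were lower by these rules). Dkk3, a divergent member of the Dickkopf family, fell. The gene (ENSMUSG00000030772, chromosome 7 from 111715224 to 111758264 in the deposited table) had normalized CPM of 32.1, 27.9 and 26.4 in vehicle and 14.1, 7.41 and 5.15 in rebamipide libraries. The vehicle libraries lay close together and the groups were separate. Its counts were 1601, 1373 and 1236 in vehicle and 427, 190 and 135 in rebamipide libraries, and the log2 fold change was -1.70 ± 0.40 (SE, adjusted p = 0.0343 in edgeR, 0.00121 in DESeq2). In edgeR the adjusted p-value was 0.0903 without vehicle library 1, 0.125 without vehicle library 2, 0.0698 without vehicle library 3, 0.138 without rebamipide library 2 and 0.0656 without rebamipide library 3, with log2 fold changes of -1.73 to -1.42 in these 5 fits. DESeq2 called Dkk3 lower with each of the 6 libraries left out. In edgeR, the fits without vehicle library 2 and without rebamipide library 2 called 0 and 1 genes in the whole table.

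Dkk2, an inhibitor that acts on Lrp co-receptors, had 192, 569 and 660 counts in vehicle and 72, 52 and 12 in rebamipide libraries. The groups were separate, with vehicle library 1 the lowest of its group (log2 fold change -2.60 ± 0.76, SE, adjusted p = 0.0576 in edgeR, 0.00264 in DESeq2). Sfrp1, a decoy that binds Wnt ligands, had 6737, 5552 and 5610 counts in vehicle and 2195, 539 and 231 in rebamipide libraries. Its vehicle libraries agreed closely, at 113 to 135 normalized CPM, and each rebamipide library was below them (log2 fold change -1.85 ± 0.73, SE, adjusted p = 0.115 in edgeR, 0.0357 in DESeq2). Sfrp2, a related decoy of dermal fibroblasts, had 987, 873 and 3133 counts in vehicle and 803, 121 and 106 in rebamipide libraries. It overlapped between the groups (log2 fold change -1.57 ± 0.92, SE, adjusted p = 0.243 in edgeR), and its log2 fold change was -0.63 without vehicle library 3 and -2.99 without rebamipide library 1 (adjusted p = 0.0429 in edgeR).

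Wif1, a secreted inhibitor that binds Wnt ligands, had 4397, 980 and 371 counts in vehicle and 412, 26 and 2 in rebamipide libraries. It was the largest part of the antagonists' FPKM in vehicle library 1, at 38.6%, and made up 12.4% and 3.81% in vehicle libraries 2 and 3. In edgeR its log2 fold change was -2.98 ± 1.69 (SE, adjusted p = 0.231 in edgeR), with overlap between the groups. Sfrp5 had the smallest fitted change of the antagonists (log2 fold change -0.19 ± 0.53, SE, adjusted p = 0.813 in edgeR), with normalized CPM of 4.85, 10.4 and 13.6 in vehicle and 11.4, 4.13 and 9.85 in rebamipide libraries. Notum, which inactivates Wnt ligands by removing their lipid, and Sfrp4 had log2 fold changes of -2.68 and -2.19 (adjusted p-values 0.238 and 0.127 in edgeR, 0.135 and 0.0337 in DESeq2). Dkk1 and Dkk4 had at most 6 counts in any library.

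The intracellular feedback inhibitors are themselves targets of the pathway. None of the 3 passed an adjusted p-value under 0.05 in edgeR, 2 were lower with an unadjusted p-value under 0.05 (18.8% of all genes), DESeq2 called 2 lower (15.5% of all genes), and differences between the inhibitors were not tested. Nkd2 had 6875, 2600 and 417 counts in vehicle and 459, 95 and 60 in rebamipide libraries. Its vehicle libraries spread from 8.92 to 138 normalized CPM, and rebamipide library 1 at 15.1 was above vehicle library 3. The fitted log2 fold change was -3.24 ± 1.16 (SE, adjusted p = 0.092 in edgeR, 0.00614 in DESeq2). Nkd1 had 1812, 674 and 316 counts in vehicle and 222, 48 and 117 in rebamipide libraries. Its groups overlapped in normalized CPM by the same pair of libraries (log2 fold change -2.05 ± 0.77, SE, adjusted p = 0.101 in edgeR, 0.0249 in DESeq2).

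Axin2, the scaffold of the β-catenin destruction complex that is widely used as a readout of canonical signaling, had normalized CPM of 51.8, 29.4 and 23.0 in vehicle and 25.6, 25.7 and 33.2 in rebamipide libraries. The groups overlapped, and rebamipide library 3 was above vehicle libraries 2 and 3. The counts were 2586, 1448 and 1077 in vehicle and 777, 659 and 869 in rebamipide libraries. The estimated log2 fold change was -0.30 ± 0.34 (SE, adjusted p = 0.526 in edgeR, 0.617 in DESeq2), and it was 0.08 without vehicle library 1 and -0.94 with total counts alone, neither of which passed the adjusted threshold. Of the 3 inhibitors, Axin2 made up 20.5%, 27.7% and 55.7% of the summed FPKM in vehicle and 49.5%, 79.8% and 80.5% in rebamipide libraries. The promoters of Axin2 (chr11:108920099-108920348, plus strand) and Nkd2 (chr13:73847632-73847881, minus strand; GRCm38.p6, RefSeq) are shown because these targets of the same pathway had unlike values across the libraries. Neither holds the letters searched in this window.
Axin2 promoter: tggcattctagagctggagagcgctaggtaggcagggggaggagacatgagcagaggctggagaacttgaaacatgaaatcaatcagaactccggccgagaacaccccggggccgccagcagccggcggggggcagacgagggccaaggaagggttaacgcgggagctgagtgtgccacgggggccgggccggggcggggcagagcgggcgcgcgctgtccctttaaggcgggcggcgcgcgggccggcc
Nkd2 promoter: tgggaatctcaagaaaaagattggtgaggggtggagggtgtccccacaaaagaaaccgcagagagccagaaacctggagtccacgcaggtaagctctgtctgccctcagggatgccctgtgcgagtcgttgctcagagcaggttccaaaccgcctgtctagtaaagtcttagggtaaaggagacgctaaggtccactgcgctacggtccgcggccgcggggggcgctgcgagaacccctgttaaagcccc

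The nuclear factors that partner with β-catenin were fitted lower and spread widely among libraries. Lef1 had 5641, 1280 and 110 counts in vehicle and 268, 9 and 6 in rebamipide libraries. In normalized CPM this was 113, 25.99 and 2.35 against 8.82, 0.351 and 0.229, so that rebamipide library 1 was above vehicle library 3. Its log2 fold change was -3.90 ± 1.86 (SE, adjusted p = 0.168 in edgeR, 0.0235 in DESeq2), and it ranged from -7.33 without rebamipide library 1 to -2.13 without vehicle library 1. Tcf7 had 2901, 941 and 453 counts in vehicle and 234, 63 and 26 in rebamipide libraries. Its groups did not overlap, and its log2 fold change was -2.96 ± 0.98 (SE, adjusted p = 0.077 in edgeR, 0.00469 in DESeq2).

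**Figure D3:**
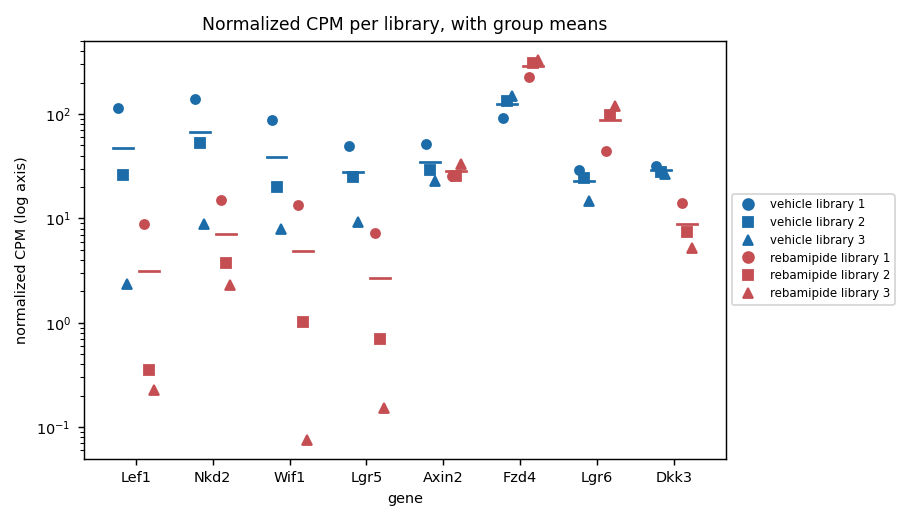
Normalized CPM (y axis, log scale) of 8 Wnt genes (x axis) in each of the 3 vehicle and 3 rebamipide libraries, with horizontal lines at the group means. Lef1, Nkd2 and Wif1 overlap between the groups through vehicle library 3 and rebamipide library 1, Axin2 lies between 23.0 and 51.8 in all 6 libraries, and Fzd4 and Lgr6 are higher in each rebamipide library.

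Across the Wnt genes, the libraries also differed within the groups. The highest value was in vehicle library 1 for 29 of 43 genes (67.4%, against 31.2% of all genes tested), and the lowest was in rebamipide library 3 for 32 of 43 (74.4%, against 31.1%). Vehicle library 1 was over 4 times vehicle library 3 for 15 of 43 genes (34.9%, against 4.82%), among them Lef1, Tcf7, Nkd1, Nkd2, Lgr5 and Wif1. Rebamipide library 1 was the highest of its group for 36 of 43 genes (83.7%, against 41.9%), and it was above vehicle library 3 for 16 (37.2%, against 50.0%).

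These orders ran beside those of the marker lists. The growing hair follicle and dermal papilla lists both ranked the libraries as vehicle 1, vehicle 2, rebamipide 1, vehicle 3, rebamipide 2 and rebamipide 3. The same order held for 7 of 43 Wnt genes (16.3%), which were Fzd1, Fzd5, Lef1, Nkd2, Notum, Rspo2 and Wif1, against 2.12% of all genes tested. The bulge and proliferation lists ranked vehicle 1, 2 and 3 above rebamipide 1, 2 and 3 in that order, as did 12 Wnt genes (27.9%, against 6.35%), among them Dkk3, Fzd3, Lgr5, Rspo3, Tcf7, Wnt10b, Wnt3a and Wnt4. The bulge list had a mean log2(CPM + 0.5) of 5.86, 5.57 and 4.79 in vehicle and 4.64, 2.88 and 0.93 in rebamipide libraries. The dermal papilla list was at 3.38, 2.39 and 1.38 in vehicle and 2.36, 0.60 and 0.28 in rebamipide libraries, but the 1 of its 6 markers that edgeR called, Alpl, was higher, at 5.28 to 8.71 normalized CPM in vehicle and 18.5 to 28.9 in rebamipide libraries (log2 fold change 1.80 ± 0.30, SE, adjusted p = 0.0146). These are descriptions of 6 libraries, and within each library the Wnt genes and the markers share the same depth and normalization. Whether the makeup of the samples set the Wnt gene levels was not tested.

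**Figure D4:**
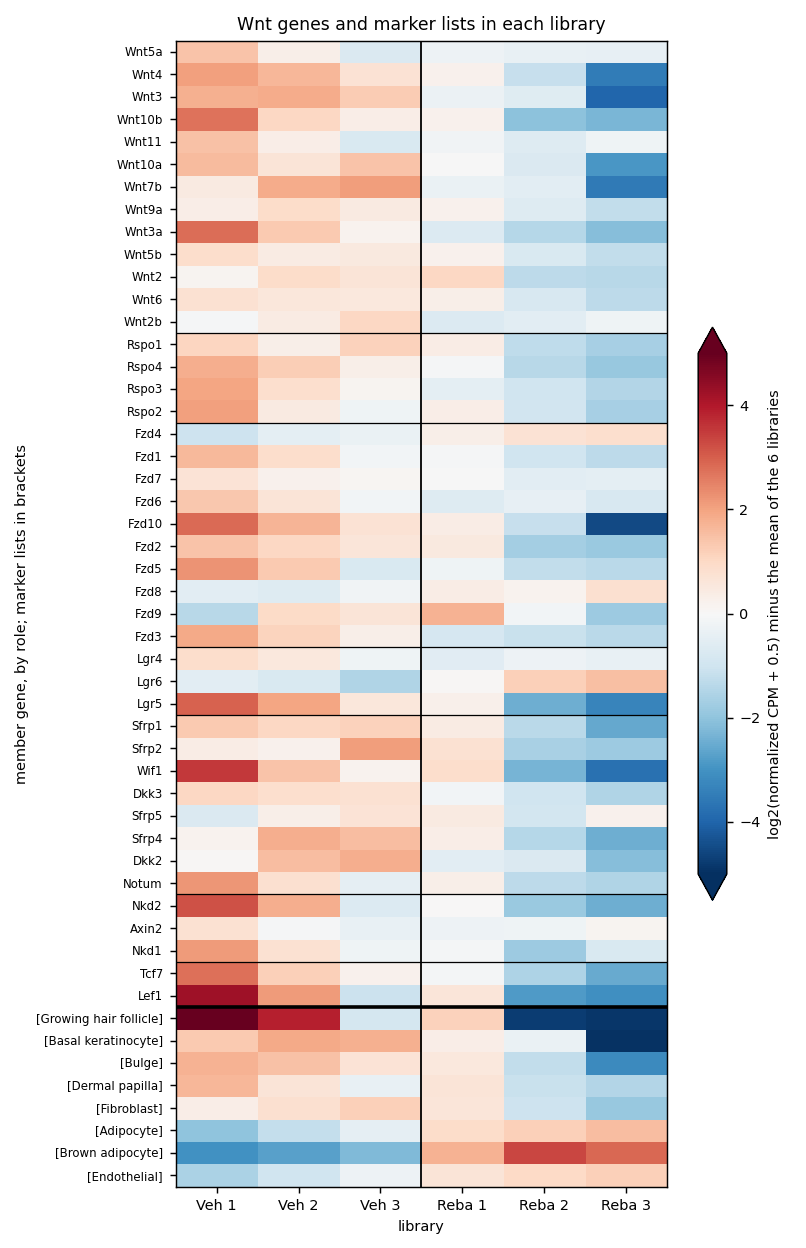
Log2(normalized CPM + 0.5) minus the mean of the 6 libraries (color, red above and blue below the mean) for the 43 Wnt genes tested, by role from ligands at the top to nuclear factors, and below the thick line for 8 marker lists in brackets (rows), in the 3 vehicle (Veh) and 3 rebamipide (Reba) libraries (columns). For 29 of 43 genes the highest value is in vehicle library 1, as for the growing hair follicle list, while Fzd4 and Lgr6 are higher in the rebamipide libraries, as are the adipocyte and endothelial lists.

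The other genes of the pathway, a list of 55 genes with 53 tested, had a median log2 fold change of -0.67. At an adjusted p-value under 0.05, edgeR called 2 of them higher (3.77%) and 7 lower (13.2%), against the 14.1% and 6.51% of all genes. At the study's thresholds 0 were higher and 16 lower (30.2%), against the 14.3% and 14.5% of all genes, and by adjusted p-value DESeq2 called 2 higher and 20 lower, against 16.2% and 15.5%. The 2 genes that rose were Gsk3a and Btrc. Gsk3a, a kinase of the β-catenin destruction complex, had normalized CPM of 50.2, 38.0 and 37.9 in vehicle and 60.7, 83.1 and 75.0 in rebamipide libraries (log2 fold change 0.79 ± 0.21, SE, adjusted p = 0.045 in edgeR). Btrc, which recognizes phosphorylated β-catenin, had 11.6, 12.8 and 15.0 in vehicle and 22.4, 21.6 and 25.6 in rebamipide libraries (log2 fold change 0.82 ± 0.21, SE, adjusted p = 0.0421 in edgeR). Other genes of the 14 on the cytoplasmic steps differed from these. Apc, the scaffold, and Csnk1a1, the priming kinase, were lower without overlap (log2 fold changes -0.87 ± 0.29 and -0.77 ± 0.24, SE, edgeR adjusted p-values 0.0765 and 0.0678), Axin1 had a log2 fold change of 0.04, and 7 of the 14 were fitted below 0 and 7 above. Neither Gsk3a nor Btrc was called with total counts alone, under which 0 of the 53 genes were higher and 20 were lower, and 1258 and 3752 of all 14875 genes were. With a replicate block 0 of the 53 genes were higher (1432 of all genes), and without the filter 1 of 55 was (1913 of 17835 genes).

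The 7 genes that fell came from several steps of the pathway. Wls carries Wnt ligands to the cell surface, Ror1 is a co-receptor for Wnt5a, Sostdc1 is a secreted inhibitor of hair follicles, Myc is a target gene, and Vangl1, Prickle2 and Celsr2 act in planar polarity. Those with the smallest p-values were Vangl1 (log2 fold change -1.21 ± 0.28), Myc (-1.52 ± 0.36), Ror1 (-1.42 ± 0.34), Sostdc1 (-2.35 ± 0.57) and Prickle2 (-1.73 ± 0.43, SE in each case), with edgeR adjusted p-values from 0.0315 to 0.0395. Sostdc1, for example, had normalized CPM of 45.1, 35.7 and 24.9 in vehicle and 12.7, 4.83 and 3.21 in rebamipide libraries. In all 5 of these genes the groups did not overlap. Without vehicle library 1, vehicle library 2, rebamipide library 2 or rebamipide library 3, edgeR called 0 pathway genes lower at an adjusted p-value under 0.05 (13, 18, 11 and 20 with an unadjusted p-value under 0.05, and 12, 21, 8 and 15 by adjusted p-value in DESeq2), and without rebamipide library 1 it called 16. Over the whole table, the first 4 of these fits had 2170, 1786, 1665 and 2245 genes lower with an unadjusted p-value under 0.05, and 379, 0, 0 and 382 at an adjusted p-value under 0.05, so the counts without vehicle library 2 and rebamipide library 2 say nothing about the pathway genes. The genes called higher numbered 0 without vehicle library 2, vehicle library 3, rebamipide library 2 or rebamipide library 3 (2 in each with an unadjusted p-value under 0.05, and 2, 2, 1 and 0 by adjusted p-value in DESeq2), where edgeR called 0, 1727, 1 and 1012 genes of the whole table higher.

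Values are also given for the genes of β-catenin, cyclin D1 and GSK3β, whose proteins the study examined in other samples and not in these libraries. Ctnnb1, which encodes β-catenin, had normalized CPM of 701, 392 and 277 in vehicle and 322, 300.3 and 290.0 in rebamipide libraries. The rebamipide libraries lay inside the vehicle range (log2 fold change -0.59 ± 0.37, SE, adjusted p = 0.272 in edgeR). Ccnd1, which encodes cyclin D1, had 255, 76.1 and 45.5 in vehicle and 64.0, 23.7 and 18.4 in rebamipide libraries. It overlapped through vehicle library 3 and rebamipide library 1 (log2 fold change -1.83 ± 0.79, SE, adjusted p = 0.138 in edgeR). Gsk3b, which encodes the kinase GSK3β, had a log2 fold change of -0.05. None of the 3 was called by edgeR. RNA levels do not measure protein or its phosphorylation, and these libraries do not bear on the protein measurements.

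Leaving out 1 library moved the fold changes and the counts. Of the 25 Wnt genes described with counts, 15 had a fold change that moved by over 1.5 times in edgeR with some library left out, and for 16 the most negative value was that without rebamipide library 1. With edgeR and an adjusted p-value under 0.05, the number of Wnt genes called lower was 0 without vehicle library 2 (8 with an unadjusted p-value under 0.05) and 0 without rebamipide library 2 (5), where edgeR called 0 and 1 genes in the whole table. It was 18 without rebamipide library 1, where 1971 genes of the whole table were lower against 968 with all libraries. DESeq2 called 12 Wnt genes lower without vehicle library 2, 5 without rebamipide library 2, 7 without vehicle library 1 and 32 without rebamipide library 1, against 19 with all libraries. The same fits called 2114, 1475, 2026 and 4251 genes of the whole table lower, against 2552 with all libraries. The whole table thus moved in the same direction, but where the counts fell it fell by a smaller share than the Wnt genes.

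**Figure D5:**
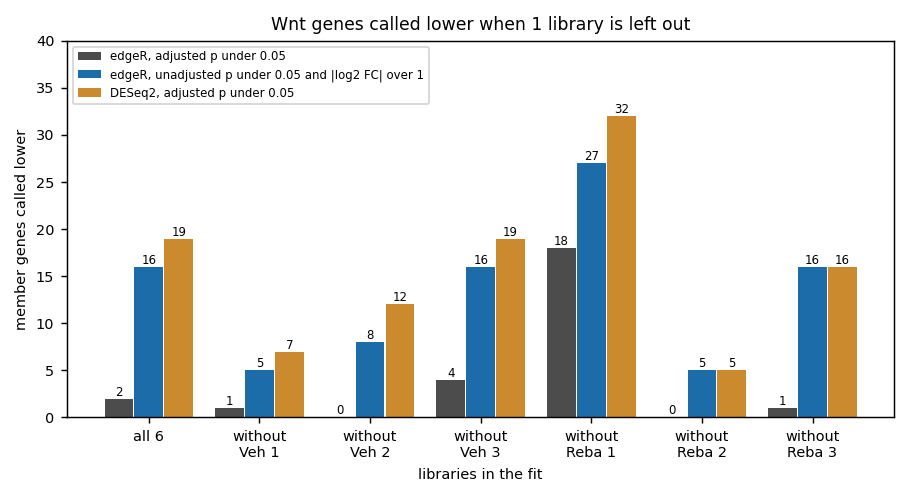
Number of Wnt genes called lower in rebamipide skin (y axis) with all 6 libraries and with each library left out (x axis), for edgeR at an adjusted p-value under 0.05 (grey), edgeR at the study's thresholds (blue) and DESeq2 at an adjusted p-value under 0.05 (orange). Without rebamipide library 1 the bars reach 18, 27 and 32, and without rebamipide library 2 they are 0, 5 and 5.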

How the data were processed

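Full-thickness dorsal skin of 3 vehicle and 3 rebamipide mice was sequenced as poly-A RNA. The authors deposited 1 table of 21959 genes with raw read counts per gene, not normalized, and FPKM. Within 0.1%, each deposited FPKM value equals the count over gene length and library total. The submitters' processing notes name fastp 0.22.0, HISAT2 2.1.0, HTSeq 0.9.1 and the build GRCm39. All 12 columns of values were matched to samples by name. Promoter sequences come from a RefSeq table of GRCm38.p6 and were not combined with the positions of the deposited table.

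The comparison used the quasi-likelihood test of edgeR 4.0.16 (R 4.3.3) after filterByExpr and TMM scaling, with Benjamini-Hochberg adjustment over 14875 genes, and DESeq2 1.42.0, the tool the study names. TMM factors were 1.21 to 1.279 in vehicle and 0.746 to 0.929 in rebamipide libraries. Normalized CPM use these factors. The scripts were tested on simulated data. The Wnt genes and all lists were chosen with earlier results of these data known.

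Total counts were 38676018 to 39915276 in vehicle and 32709801 to 34706852 in rebamipide libraries. Of genes with 1 to 20 counts, 73.8% to 76.3% had an even count, against 49.4% to 51.9% of genes with 201 to 2000 counts, so very low counts may hold fewer independent fragments than they state. Within each group the libraries differed by far more than sampling noise, with a chi-square of 83.1 to 742.3 per degree of freedom. The labels do not say that the libraries of a group came from separate cages or days, so p-values set the group difference only against the spread among these mice within each group. Counting limits cover counting error only.

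Described with counts were the 25 genes with an adjusted p-value under 0.05 in edgeR, with 1 of the 2 highest mean FPKM of their role, or within the study's thresholds, and, of the pathway list, up to 5 called genes in each direction. Wls and Celsr2 were added to complete the genes called. Wnt11, Wnt8a, Fzd8, Fzd9, Wif1, Sfrp5, Rspo2 and the other genes listed beside counts were chosen after seeing their values, and so were Apc, Csnk1a1, Axin1 and the single markers, and Ctnnb1, Gsk3b and Ccnd1 because the study examined their proteins in other samples. Alternatives were DESeq2, RLE normalization, total counts alone, no filter, a replicate block and each library left out.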

Additional observations from a re-analysis of the deposited data

How the results depend on the processing

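With RLE normalization or no filter, every count of Wnt genes called in the report stayed within 1.5 times its value. In edgeR at an adjusted p-value under 0.05, the number of Wnt genes higher was 2, 0 with total counts alone, 1 with a replicate block and 0 to 2 with 1 library left out. The number lower was 2, 19 with DESeq2, 10 with total counts alone, 10 with a replicate block and 0 to 18 with 1 library left out. Over all 14875 genes, edgeR called 968 lower, 3752 with total counts alone and 855 with a replicate block, and DESeq2 called 2552 of the 16433 genes with an adjusted p-value. At the study's thresholds the number higher was 2, 1 with total counts alone and 1 to 3 with 1 library left out, and the number lower was 16, 29 with DESeq2, 27 with total counts alone, 24 with a replicate block and 5 to 27 with 1 library left out. In the whole table these thresholds called 2161 genes lower, 2966 with DESeq2, 4518 with total counts alone and 2088 with a replicate block. The share of higher calls among all genes called at those thresholds was 49.6%, and 20% with total counts alone. Pathway genes higher numbered 2, 0 with total counts alone, 1 without the filter, 0 with a replicate block and 0 to 3 with 1 library left out, and those lower numbered 7, 20 with DESeq2, 20 with total counts alone, 12 with a replicate block and 0 to 16 with 1 library left out. DESeq2 calls with 1 library left out ranged from 2 to 3 higher and from 5 to 32 lower. With 1 library left out, the log2 fold change of Axin2 ranged from -0.521 to 0.078, the latter without vehicle replicate 1. The labels do not say whether the replicate numbers mark a shared batch. Deviations of same-numbered libraries from their group means had correlations of -0.073, -0.028 and -0.039, which cannot decide this with so few libraries per group. Causes were not tested. In these libraries the spread between replicates, with a chi-square of 83.1 to 742.3 per degree of freedom, was far above the counting noise that depth sets.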
